A study of Mus musculus with 8 samples.

Results

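The genes described here are 10 genes of blood coagulation, the fibronectin matrix and plasminogen activation, namely F3, F7, F10, F13a1, Tgm2, Fn1, Thbs1, Plau, Plaur and Serpinb2. They were taken by symbol from the 23354 gene symbols of the deposited tables, and the set was chosen by the FPKM values of F13a1 and Fn1, which differed by genotype in the same direction in both sets of libraries. The genotype values of all 10 genes are therefore given as a description without a test, and so are the IL-4 values of F13a1 and Fn1, whose control libraries the choice used. Of the 10 genes, 9 had at least 1 FPKM (a level from sequenced fragments that allows for transcript length and library size) in at least 2 libraries and so were among the 10934 genes tested. F3 reached 1 FPKM in 1 library and was not tested.

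RNA was sequenced from macrophages grown from mouse bone marrow, in 8 libraries that form 4 groups of 2. The groups are named after the library titles: Ern1f/f control, Ern1f/f IL-4, Ern1f/fLyz2-Cre control and Ern1f/fLyz2-Cre IL-4, the last pair being called Cre libraries below. All 4 groups thus carry a floxed Ern1 gene, which encodes the endoplasmic reticulum stress sensor IRE1α, and the Cre groups add a Cre recombinase driven by Lyz2, a gene active in monocytes, macrophages and neutrophils. The labels give strain C57BL/6J and an age of 8 weeks for every library, and differentiation for 7 days in medium from L929 cells, a fibroblast line that secretes macrophage growth factor. The IL-4 groups received this cytokine, an inducer of alternative activation, at 20 ng/ml for 24 hours, and the control groups did not. Each group has a library numbered 1 and a library numbered 2. The labels do not say what the number marks, nor whether the libraries of a group came from separate mice or cultures, so that p-values measure only the spread between these libraries, which may be technical.

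In coagulation, tissue factor (F3) on a cell surface binds factor VII (F7), and this complex activates factor X (F10). Activated factor X turns prothrombin into thrombin, and the transglutaminase factor XIII (F13a1) cross-links the resulting fibrin and also fibronectin (Fn1). Macrophages are known to make several of these proteins outside the liver and to lay down matrix, and factor XIII-A and transglutaminase 2 (Tgm2) are known as genes of IL-4-treated human macrophages. In fibrinolysis, urokinase (Plau) bound to its receptor (Plaur) turns plasminogen into plasmin, and serpins such as PAI-2 (Serpinb2) inhibit urokinase.

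The labelled cell type and treatment were checked first. Macrophage markers were high throughout, with Csf1r at 356 to 870 FPKM and Cd68 at 669 to 1001 FPKM, and Arg1, a gene induced by IL-4, was at 0.0444 to 1.15 FPKM in control libraries and 62.3 to 136 FPKM with IL-4. Ern1 itself ranged from 9.11 to 11.5 FPKM in Ern1f/f libraries and from 7.43 to 14.3 FPKM in Cre libraries, which overlap; the labels do not name the floxed exons, so a level over the whole gene does not check the deletion. Lyz2 was lower in the Cre library of each of the 4 pairs, and more so in number 2. In number 1 it was at 10949 against 18114 FPKM in control cells and 5780 against 8902 FPKM with IL-4. In number 2 it was at 2171 against 17415 FPKM in control cells and 1572 against 11961 FPKM with IL-4. The genotype field of the labels contradicts the title in 4 libraries, since it assigns all number 1 libraries to Ern1f/f and all number 2 libraries to the Cre genotype. Read that way, genotype cannot be told apart from replicate number. Between the numbers, 33.4% of tested genes differed (limma, adjusted p under 0.05), so values are compared within each number.

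F7 and F10 lie next to each other on the plus strand of mouse chromosome 8, F7 at chr8:13026034-13035809 and F10 at chr8:13037308-13056676 (mm10), with 1498 bases between them. F13a1 lies on the minus strand at chr13:36867178-37050244. The 250 bases before the start of these genes are shown because F7 and F10 had higher levels with IL-4 and F13a1 lower levels with IL-4 in each of the 4 pairs of libraries. They were read from RefSeq's promoter table (GRCm38.p6), run 5′ to 3′ on the gene's own strand, and cover chr8:13025784-13026033 for F7, chr8:13037058-13037307 for F10 and chr13:37050245-37050494 for F13a1. Capitals mark letters that match a searched motif, here only that of PU.1, a macrophage transcription factor.
F7: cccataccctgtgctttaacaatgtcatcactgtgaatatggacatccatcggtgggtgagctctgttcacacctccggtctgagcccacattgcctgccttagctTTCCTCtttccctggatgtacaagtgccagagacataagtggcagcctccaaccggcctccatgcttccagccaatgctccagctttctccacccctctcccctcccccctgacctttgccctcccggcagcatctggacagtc
F10: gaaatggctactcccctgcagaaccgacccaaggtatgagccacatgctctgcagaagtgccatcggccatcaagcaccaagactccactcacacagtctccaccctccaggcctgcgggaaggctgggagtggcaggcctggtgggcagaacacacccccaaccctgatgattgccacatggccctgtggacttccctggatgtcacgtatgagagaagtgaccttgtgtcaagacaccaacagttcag
F13a1: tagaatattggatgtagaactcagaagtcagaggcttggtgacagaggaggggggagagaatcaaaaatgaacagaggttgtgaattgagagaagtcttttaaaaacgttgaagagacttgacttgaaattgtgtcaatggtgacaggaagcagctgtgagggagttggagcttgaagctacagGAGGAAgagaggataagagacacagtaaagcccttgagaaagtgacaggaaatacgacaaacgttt

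The motifs were searched on both strands as plain letters, and a window can hold several. GAGGAA, for PU.1, was found in F7 (as TTCCTC on the printed strand) and in F13a1, and 23.3% of 32807 promoter windows of that length hold it. TTCNNNNGAA (the spacing bound by STAT6, which IL-4 activates) is in 5.85% of windows, TTCNNNGAA (other STAT factors) in 7.02%, TGANTCA (AP-1) in 6.75%, TTGCNNAA (C/EBP) in 9.57% and TGACGTG (an unfolded protein response element) in 1.65%. None of the 6 motifs was found in the F10 window. The table held windows for 6 of the 10 genes, including a second one for F13a1 and for Serpinb2, and no sequence is given for Fn1, Tgm2, Thbs1 and Plau. The second F13a1 window (chr13:37049214-37049463) is not printed and held none of the 6 motifs, so the PU.1 letters were in 1 of the 2 F13a1 windows. In the windows that are not printed, the AP-1 letters occurred in F3 (2 matches), Plaur and Serpinb2. Plaur, like F7 and F10 higher with IL-4 in each of the 4 pairs, also held 2 PU.1 matches and 1 C/EBP match. The 2 overlapping windows of Serpinb2 held 2 C/EBP matches and 1 match to TTCNNNGAA.

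Over the 8 libraries, Tgm2 had the highest mean level at 102 FPKM, followed by Fn1 at 51.2, Plaur at 49.6, Plau at 34.3, Thbs1 at 28.8, F10 at 22.0, F7 at 13.1, Serpinb2 at 8.51, F13a1 at 3.37 and F3 at 0.488 FPKM. The ranges of each pair of neighbours in this order overlapped, so the order of neighbours is not fixed by these libraries. Among all tested genes of a library, Tgm2 ranked between 457 and 1541 and Plaur between 998 and 2551, while Serpinb2 moved between 2770 and 10701 and Fn1 between 590 and 8172.

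**Figure D1:**
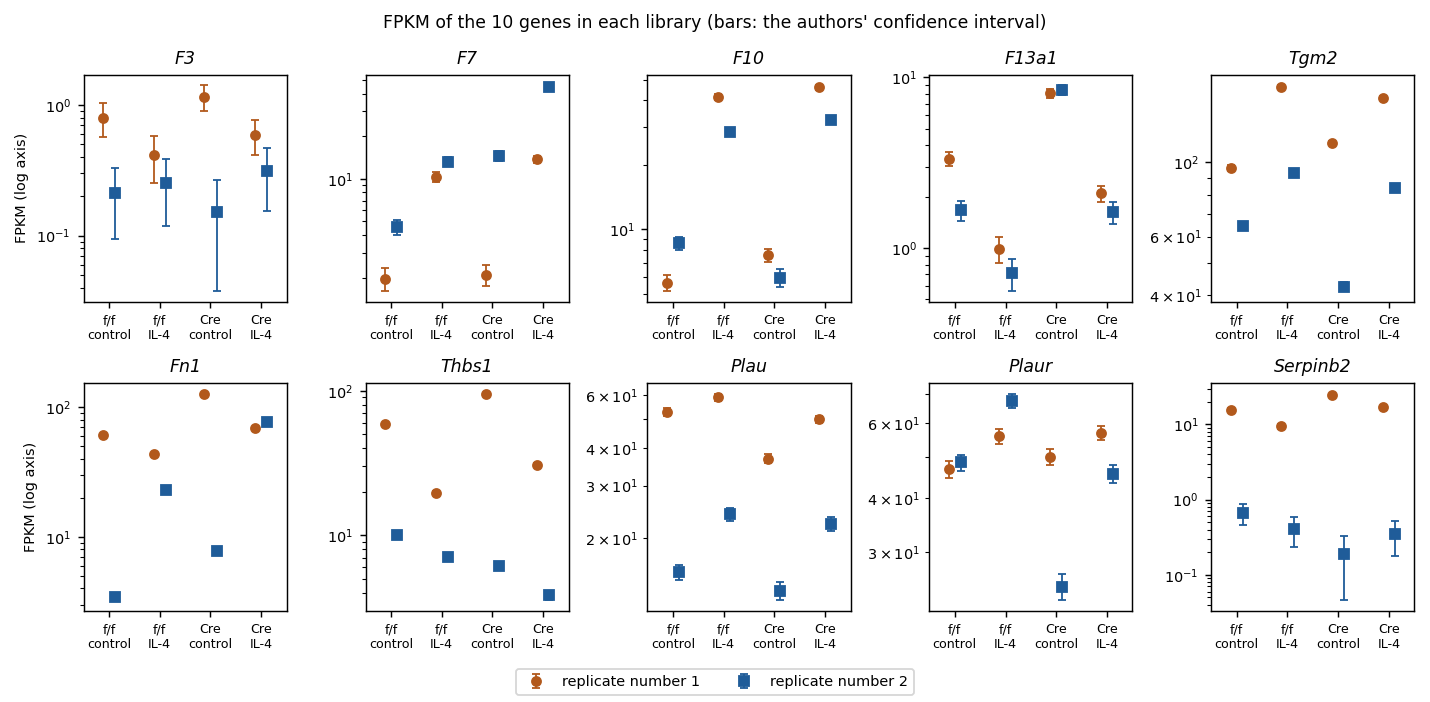
FPKM on a log axis (vertical) for each of the 10 genes by group (horizontal), with circles for libraries numbered 1 and squares for libraries numbered 2, and bars for the confidence interval the authors' software gave. F10 was at 28.5 to 46.0 FPKM in IL-4 libraries and 5.64 to 8.65 FPKM in control libraries. F13a1 was highest in the Cre control libraries (8.08 and 8.46 FPKM), and Serpinb2 was at 9.52 to 24.5 FPKM in number 1 and 0.189 to 0.671 FPKM in number 2.

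F10, the gene of factor X, was higher with IL-4 in both genotypes. In Ern1f/f cells its level was 5.64 and 8.65 FPKM in control libraries and 41.6 and 28.5 FPKM with IL-4 (numbers 1 and 2). In Cre cells it was 7.57 and 5.95 FPKM in control libraries and 46.0 and 32.3 FPKM with IL-4. F10 was higher with IL-4 in each of the 4 pairs, as were 17% of all tested genes, and the ratio within a pair ran from 3.30 to 7.38. In group means this was 7.15 ± 2.13 against 35.1 ± 9.23 FPKM in Ern1f/f cells and 6.76 ± 1.14 against 39.2 ± 9.66 FPKM in Cre cells (SD, n = 2).

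On the log2(FPKM + 1) scale used for all tests, the F10 difference was 2.15 ± 0.29 (SE) in Ern1f/f cells and 2.36 ± 0.29 in Cre cells, with adjusted p = 0.106 and 0.0769 by limma without a term for the number. With the replicate number as a block F10 rose in both genotypes, with adjusted p = 0.0162 in Ern1f/f cells and 0.0103 in Cre cells (limma). The Ern1f/f call was lost in the blocked fit without Ern1f/f control 1 (adjusted p = 0.0604, limma), Ern1f/f IL-4 1 (0.116), Cre IL-4 1 (0.0513) or Cre IL-4 2 (0.0549), and held without each of the other 4 libraries (0.0104 to 0.0397). The Cre call was lost without Cre control 1 (adjusted p = 0.0513, limma), Cre IL-4 1 (0.130) or Cre IL-4 2 (0.0885) and held without the other 5 (0.00534 to 0.0461). These are bulk measurements, in which fewer cells of a type and less RNA per cell cannot be told apart.

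F7, the gene of factor VII, had the same direction as its neighbour but a wider spread. Its level in Ern1f/f cells was 1.96 and 4.57 FPKM in control libraries and 10.4 and 13.2 FPKM with IL-4. In Cre cells it was 2.09 and 14.6 FPKM in control libraries and 13.7 and 44.3 FPKM with IL-4. F7 was higher with IL-4 in each of the 4 pairs, by 2.89 to 6.57 times, while the Cre control library numbered 2 stood above 3 of the 4 IL-4 libraries. The log2 difference was 1.65 ± 0.87 in Ern1f/f cells (SE; adjusted p = 0.974 by limma, 0.115 with the block) and 1.90 ± 0.87 in Cre cells (0.629, and 0.0697 with the block), so F7 did not pass the test. With the block it passed in Ern1f/f cells when Cre control 1 or Cre control 2 was left out (adjusted p = 0.0446 and 0.0463, limma), and in Cre cells when Ern1f/f IL-4 1, Ern1f/f IL-4 2 or Cre control 2 was left out (0.0362, 0.0375 and 0.0406).

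F3, the gene of tissue factor and the receptor of factor VII, was near the limit of detection. Its level was 0.801, 0.416, 1.16 and 0.591 FPKM in the libraries numbered 1, in the order Ern1f/f control, Ern1f/f IL-4, Cre control, Cre IL-4. In the libraries numbered 2 it was 0.211, 0.254, 0.153 and 0.311 FPKM in the same order. The width of the authors' intervals corresponds to 7.00 to 76.0 fragments for F3, against 84.1 to 1179 for F13a1 and 116 to 2255 for F7, and this counting error alone is wide for F3. With IL-4 the F3 level was lower in the pairs numbered 1 and higher in those numbered 2.

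F13a1, the A subunit of factor XIII, had the opposite direction to F10, with lower levels in IL-4 libraries. In Ern1f/f cells it was 3.32 and 1.66 FPKM in control libraries and 0.987 and 0.711 FPKM with IL-4. In Cre cells it was 8.08 and 8.46 FPKM in control libraries and 2.09 and 1.62 FPKM with IL-4. The IL-4 level was 0.192 to 0.427 times the control level within the 4 pairs, and both Cre control libraries stood above the other 6 libraries.

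The mean log2 difference of F13a1 with IL-4 was -0.88 in Ern1f/f cells and -1.70 in Cre cells. It is given without a test, since its control libraries are those of the genotype difference for which F13a1 was chosen. The 60 bases of F13a1 exon that overlap the antisense gene Gm30489 cannot be assigned to a strand here, since the labels do not say whether strand was kept. Similar overlaps exist for Fn1 (197 bases with Apol7d), Tgm2 (521 with Gm20412 and 370 with Rprd1b) and Thbs1 (110 with Gm29233).

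**Figure D2:**
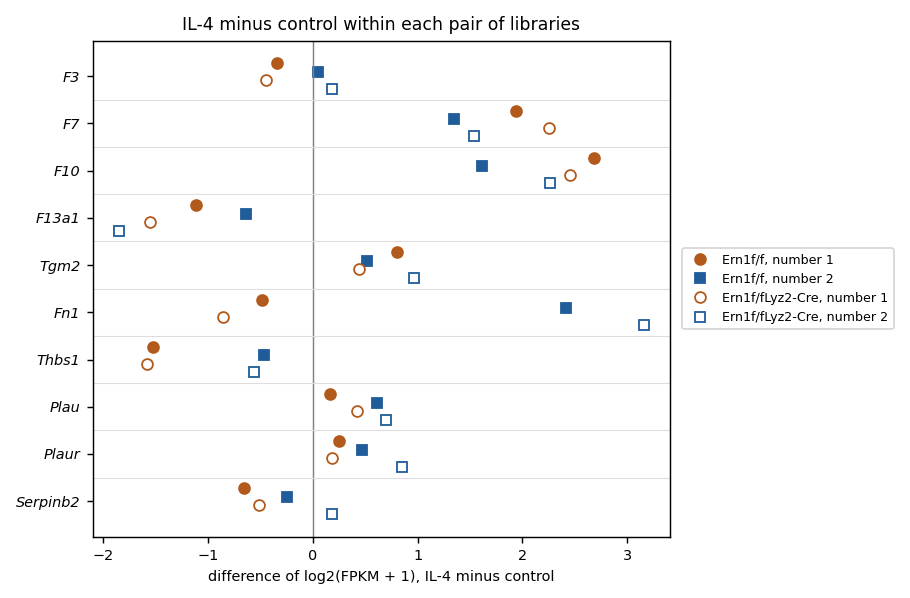
Difference of log2(FPKM + 1), IL-4 minus control (horizontal), for each gene (vertical) within the 4 pairs of libraries, with filled symbols for Ern1f/f, open symbols for Cre, circles for number 1 and squares for number 2. F10 and F7 lie right of 0 and F13a1 and Thbs1 left of 0 in the 4 pairs, while Fn1 lies left of 0 in number 1 (-0.48 and -0.85) and right of 0 in number 2 (2.41 and 3.16).

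Tgm2, transglutaminase 2, was the most abundant of the 10 genes. Its level in Ern1f/f cells was 96.2 and 64.5 FPKM in control libraries and 168 and 92.8 FPKM with IL-4. In Cre cells it was 114 and 42.4 FPKM in control libraries and 156 and 83.7 FPKM with IL-4. Each IL-4 library exceeded the control library of its pair by 1.36 to 1.97 times, but control libraries numbered 1 stood above IL-4 libraries numbered 2. The log2 difference was 0.66 ± 0.57 in Ern1f/f cells and 0.70 ± 0.57 in Cre cells (SE), with adjusted p = 0.999 and 0.839 by limma and 0.157 and 0.111 with the block.

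Fn1, fibronectin, the matrix protein that factor XIII and transglutaminase 2 cross-link, differed between the numbers. In number 1 its level was 60.7 and 43.2 FPKM in Ern1f/f cells without and with IL-4, and 126 and 69.1 FPKM in Cre cells. In number 2 it was 3.46 and 22.8 FPKM in Ern1f/f cells without and with IL-4, and 7.72 and 76.9 FPKM in Cre cells. IL-4 libraries were thus lower in both pairs numbered 1, at 0.712 and 0.549 times the control, and higher in both pairs numbered 2, at 6.58 and 9.96 times. Averaged over the numbers the log2 difference was 0.97 in Ern1f/f cells and 1.15 in Cre cells, an average over opposite directions. As for F13a1, no test is given, because these control libraries are part of the genotype difference for which Fn1 was chosen.

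Thbs1, thrombospondin 1, a platelet and matrix glycoprotein that binds fibronectin, was lower with IL-4 within each pair. In number 1 its level was 58.6 and 19.7 FPKM in Ern1f/f cells without and with IL-4, and 94.2 and 30.8 FPKM in Cre cells. In number 2 it was 10.1 and 7.02 FPKM in Ern1f/f cells, and 6.15 and 3.85 FPKM in Cre cells. The IL-4 level was 0.328 to 0.695 times the control level, but the 4 libraries numbered 1 stood above the 4 numbered 2, so the groups overlapped. The log2 difference was -0.999 ± 1.56 in Ern1f/f cells and -1.07 ± 1.56 in Cre cells (SE; adjusted p = 0.999 and 0.933 by limma, 0.371 and 0.257 with the block).

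Plau, the gene of urokinase, was slightly higher with IL-4 within each pair. In number 1 it was at 52.8 and 59.1 FPKM in Ern1f/f cells without and with IL-4, and at 36.9 and 49.9 FPKM in Cre cells. In number 2 it was at 15.5 and 24.1 FPKM in Ern1f/f cells, and at 13.4 and 22.4 FPKM in Cre cells. The ratio ran from 1.12 to 1.67, and the log2 differences of 0.38 ± 0.81 and 0.56 ± 0.81 (SE) did not pass the test (adjusted p = 0.999 and 0.931 by limma, 0.292 and 0.108 with the block).

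Plaur, the urokinase receptor, had the smallest spread between the numbers of the 3 genes of plasminogen activation. It was at 46.7 and 55.9 FPKM in Ern1f/f cells without and with IL-4 and at 50.1 and 57.0 FPKM in Cre cells in number 1. In number 2 the 4 values were 48.5, 67.7, 24.9 and 45.7 FPKM in the same order. The Cre control library numbered 2 was the lowest, and the ratio of IL-4 to control ran from 1.14 to 1.84. The log2 differences of 0.36 ± 0.33 in Ern1f/f cells and 0.52 ± 0.33 in Cre cells (SE) had adjusted p = 0.999 and 0.768 by limma and 0.604 and 0.339 with the block.

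Serpinb2, the gene of the urokinase inhibitor PAI-2, was at 15.6, 9.52, 24.5 and 16.9 FPKM in number 1, in the order Ern1f/f control, Ern1f/f IL-4, Cre control, Cre IL-4. In number 2 it was at 0.671, 0.412, 0.189 and 0.350 FPKM, below 1 FPKM in all 4 libraries. Its IL-4 level was lower in 3 of the 4 pairs and higher in the Cre pair numbered 2. The log2 differences were -0.45 ± 2.10 in Ern1f/f cells and -0.17 ± 2.10 in Cre cells (SE; adjusted p = 0.999 and 0.992 by limma, 0.581 and 0.805 with the block).

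Of the 7 tested genes other than F13a1 and Fn1, 5 (Tgm2, F7, F10, Plau and Plaur) were higher with IL-4 in each of the 4 pairs, where 17% of all tested genes were, and 1 (Thbs1) was lower, where 23.5% were. In Ern1f/f cells limma without a block called 0 of the 7 genes and 0% of all tested genes, with 673 of all tested genes at an unadjusted p under 0.05, F10 among them. In Cre cells it called 0 of the 7 against 0.0549% of all, with 933 at an unadjusted p under 0.05, again F10 among them. With the block it called 1 of the 7 (F10) in each genotype, against 2.12% of all in Ern1f/f cells and 3.32% of all in Cre cells.

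**Figure D3:**
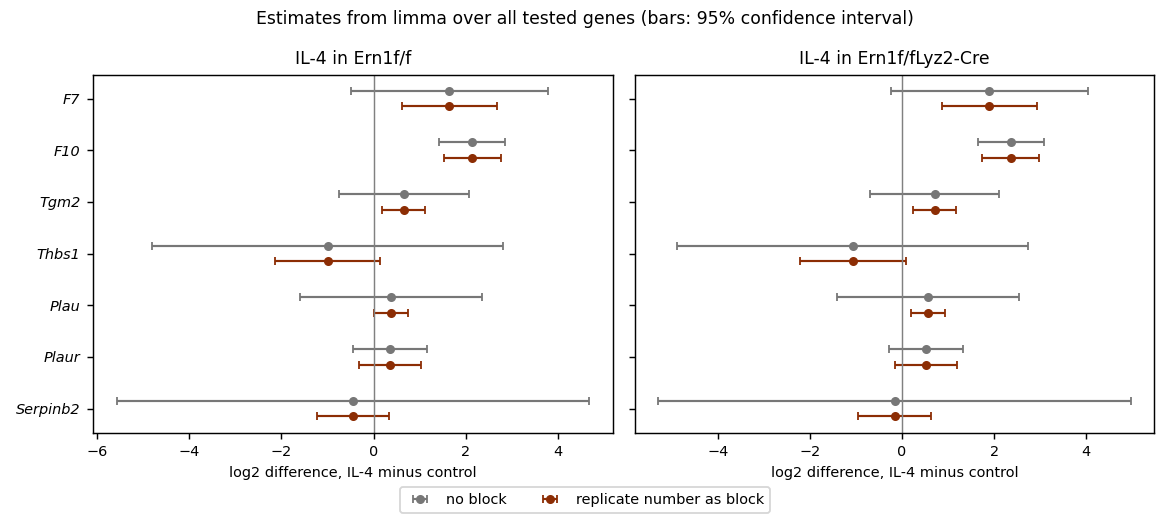
Fitted log2 difference, IL-4 minus control (horizontal), for the 7 tested genes other than F13a1 and Fn1 (vertical) in Ern1f/f cells (left) and Cre cells (right), with 95% confidence intervals from limma without a block (grey) and with the replicate number as a block (brown). The intervals of Thbs1, Serpinb2, Plau and Tgm2 narrow most, relative to their width, with the block, and that of F10 changes little (1.43 to 2.87 without and 1.53 to 2.77 with it in Ern1f/f cells).

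Whether the IL-4 difference itself depended on genotype was asked with an interaction term. No tested member other than F13a1 and Fn1 passed in either fit, and 0% of all tested genes did, with 19 of them (no block) and 103 (block) at an unadjusted p under 0.05. For F10 the difference between the genotypes' log2 differences (Cre minus Ern1f/f) was 0.21, with a 95% interval of -0.80 to 1.23 without the block and -0.66 to 1.09 with it. For F7 it was 0.25, with intervals of -2.77 to 3.27 and -1.20 to 1.70, so that a sizeable dependence in either direction was not detectable for F7. For F13a1 it was -0.82 and for Fn1 0.19, given without a test because both were chosen for a genotype difference in the same libraries.

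The genotype difference, which the choice of genes used, was as follows. In control cells F13a1 was 2.43 times higher in the Cre library of number 1 and 5.08 times higher in that of number 2. With IL-4 it was 2.12 and 2.28 times higher. Mean F13a1 levels were 2.49 ± 1.17 against 8.27 ± 0.267 FPKM in control cells and 0.849 ± 0.195 against 1.86 ± 0.331 FPKM with IL-4 (SD, n = 2).

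Fn1 was 2.07 and 2.23 times higher in the Cre library of the pairs numbered 1 and 2 in control cells, and 1.60 and 3.38 times higher with IL-4. The genotype difference of Fn1 within a pair, 0.67 to 1.71 on the log2 scale, was smaller than the difference between the numbers in control cells, where number 1 was at 60.7 and 126 FPKM and number 2 at 3.46 and 7.72 FPKM. F7 was also higher in the Cre library of the 4 pairs, by 1.07 and 1.32 times in number 1 and 3.20 and 3.35 times in number 2. Plau was lower in the Cre library of the 4 pairs, at 0.700 to 0.930 times. Counting F13a1 and Fn1, for which the set was chosen, 3 of 9 genes were higher in the 4 pairs and 1 of 9 lower. The shares of all tested genes were 6.55% and 4.49%, and nothing is read from these counts because the choice used this contrast.

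**Figure D4:**
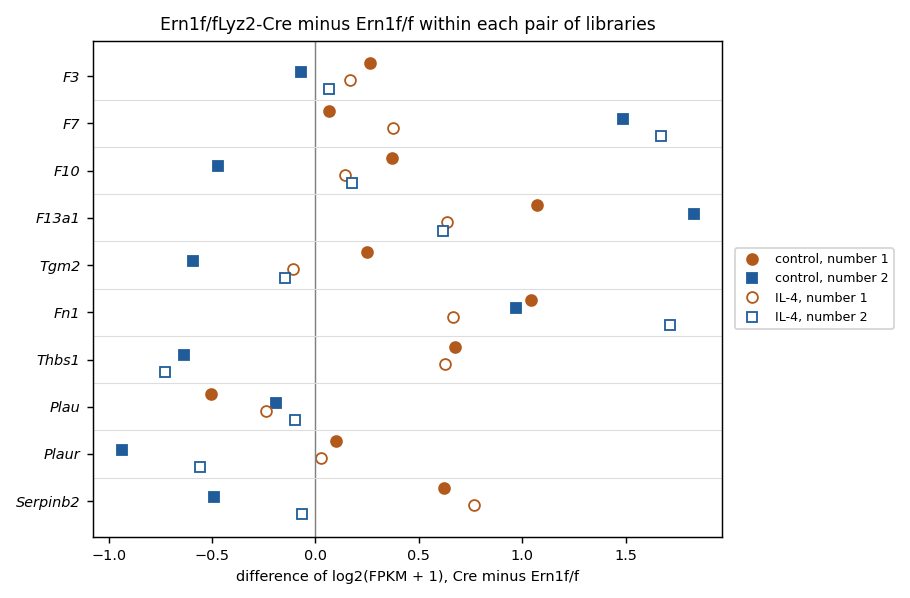
Difference of log2(FPKM + 1), Cre minus Ern1f/f (horizontal), for each gene (vertical) within the 4 pairs of libraries, with filled symbols for control, open symbols for IL-4, circles for number 1 and squares for number 2. F13a1 (0.62 to 1.83) and Fn1 (0.67 to 1.71) lie right of 0 in the 4 pairs, while Thbs1 and Serpinb2 lie right of 0 in number 1 and left of 0 in number 2.

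The other members had no common direction between genotypes. Thbs1 was 1.61 and 1.57 times higher in the Cre libraries of number 1, without and with IL-4, but 0.608 and 0.548 times as high in number 2. Serpinb2 was 1.58 and 1.77 times higher in number 1 and 0.281 and 0.851 times as high in number 2, where it was below 1 FPKM. Plaur was near equal in number 1 (1.07 and 1.02 times) and lower in the Cre libraries of number 2 (0.512 and 0.675 times). F10 ranged from 0.688 to 1.34 times and Tgm2 from 0.658 to 1.19 times over the 4 pairs.

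With the groups in the model, 5 of the 9 genes differed between the numbers, against 33.4% of all tested genes. Tgm2 (log2 -0.93 ± 0.14, adjusted p = 0.00438), Thbs1 (-2.56 ± 0.34, 0.00294), Plau (-1.37 ± 0.11, 0.000547) and Serpinb2 (-3.59 ± 0.23, 0.000274) were lower in number 2 by limma, as were 23.3% of all. In these 4 genes each library numbered 1 stood above each library numbered 2, as in 22.4% of all tested genes. F7, like 10.1% of all, was higher in number 2 (1.299 ± 0.302, adjusted p = 0.0195, limma), a call lost without Cre IL-4 1 or Cre IL-4 2 (adjusted p = 0.0809 and 0.0829). Fn1 at -2.10 ± 0.69 did not pass (adjusted p = 0.0585, limma) but did without Cre IL-4 1 or Cre IL-4 2 (0.0343 and 0.0356). F10 at -0.20 ± 0.18 did not pass (0.437) but did without Ern1f/f control 1 or Ern1f/f control 2 (0.0283 and 0.0290). F13a1 (-0.27 ± 0.13, adjusted p = 0.151, limma) and Plaur (-0.24 ± 0.20, 0.377) did not pass.

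Fn1, Thbs1 and Serpinb2 are also made by fibroblasts and other stromal cells, so a list of 12 stromal markers (such as Col1a1 and Sparc) was summed in each library. The sum in number 1 was 258 FPKM in Ern1f/f control, 118 in Ern1f/f IL-4, 694 in Cre control and 324 in Cre IL-4. In number 2 it was 11.7, 11.6, 5.26 and 3.65 FPKM in the same order. In number 1 the sum thus moved with Fn1, Thbs1 and Serpinb2, being higher in the Cre library of each pair and lower with IL-4. In number 2 it was lower in the Cre libraries, where Fn1 was higher and Thbs1 and Serpinb2 lower, and it did not differ with IL-4 in the direction of Fn1, which was 6.58 and 9.96 times higher with IL-4. F13a1 and F3 also had both directions of the sum in number 1. In number 2, F13a1 was higher in the Cre libraries and F3, near the limit of detection, was higher with IL-4, where the sum was not. The part of stromal cells in the values of number 1 was not tested.

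**Figure D5:**
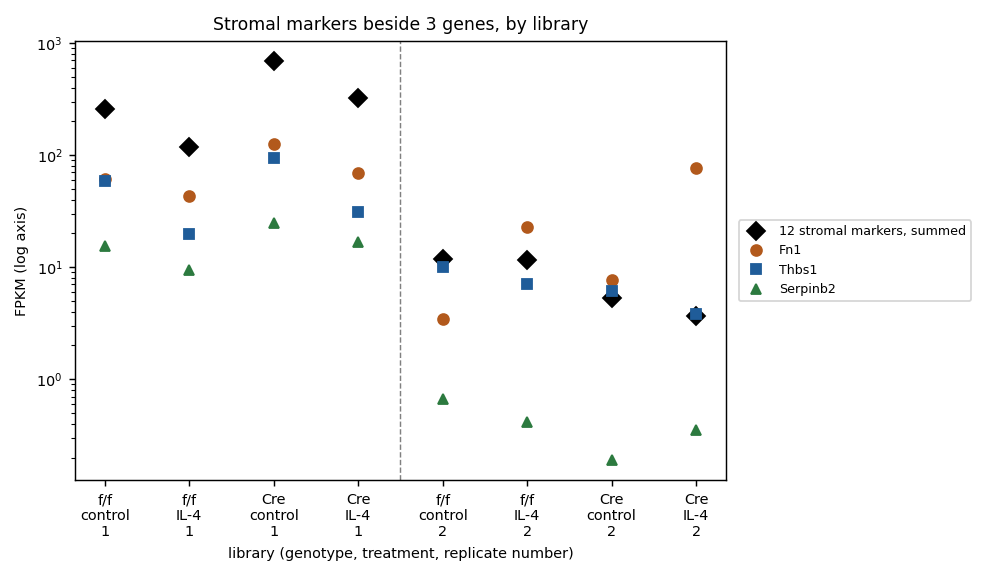
FPKM on a log axis (vertical) for the sum of 12 stromal markers (diamonds) and for Fn1, Thbs1 and Serpinb2 in each of the 8 libraries (horizontal), with number 1 left of the dashed line and number 2 right of it. In number 1 each of the 4 series is highest in Cre control and lowest in Ern1f/f IL-4, while in number 2 Fn1 is highest in Cre IL-4 (76.9 FPKM), where the marker sum is lowest (3.65 FPKM).

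F13a1 is known from monocytes, macrophages and megakaryocytes, so their markers were read beside it. Of 8 macrophage markers, 4 were lower with IL-4 in each of the 4 pairs, the direction of F13a1, and 0 were higher. Lyz2 and Cd14 were lower in the Cre library of each pair, opposite to F13a1, and 0 of the 8 were higher. Of all tested genes, 23.5% were lower and 17% higher with IL-4 in each pair, and 4.49% were lower and 6.55% higher in the Cre library. The sum of 5 monocyte markers was 8.07, 6.78, 9.34 and 7.74 FPKM in number 1, in the order Ern1f/f control, Ern1f/f IL-4, Cre control, Cre IL-4, and 11.4, 10.6, 35.1 and 7.69 FPKM in number 2. It was therefore highest in 1 of the 2 libraries in which F13a1 was highest, Cre control 2, where Plac8 made up 30.6 FPKM of it, and close to the rest in the other, Cre control 1. The sum was lower with IL-4 in each of the 4 pairs, the direction F13a1 also had. Of its 4 tested markers, 3 (Ly6c2, Vcan and Plac8) were likewise lower with IL-4 in each pair. The remaining tested marker, Ccr2, went the other way and was higher with IL-4 in each of the 4 pairs. In the Cre library of each pair Ccr2 was lower, opposite to F13a1, and no tested monocyte marker was higher in each. Of 11 megakaryocyte and platelet markers, Pf4 made up nearly all of the sum at 81.6 to 228 FPKM, and 6 were tested. With IL-4, Pf4 was higher in each of the 4 pairs and Gp1ba, at 0.448 to 1.18 FPKM, was lower in each, as F13a1 was. Between genotypes, Pf4 alone of the 6 was higher in the Cre library of each of the 4 pairs, as F13a1 and 6.55% of all tested genes were. The defining markers Itga2b and Gp9 were at 0.112 to 1.54 and at 0 to 2.25 FPKM. Of the same list, Ppbp was at 0.127 to 10.6 FPKM and Treml1 at 0.971 to 5.93 FPKM. The part of these cells in the F13a1 values was not tested.

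The libraries' other genes of coagulation were mostly at or near 0. Of 19 coagulation factors and their processing genes outside the 10, 6 were tested, and none passed for IL-4 or genotype in either fit. The most abundant were Mcfd2, a transport receptor for factors V and VIII (mean 52.8 FPKM), and Vkorc1, which recycles the vitamin K needed to make factors VII and X (46.1 FPKM). Their median log2 IL-4 difference was 0.06 in Ern1f/f and 0.12 in Cre cells, against -0.04 and -0.02 for all tested genes. The 4 thrombin and protease receptors were not tested.

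Of 13 coagulation inhibitors and related genes, 7 were tested. Their median log2 IL-4 difference was -0.54 in Ern1f/f and -0.46 in Cre cells, against the same medians of all genes. The list had no common direction. With IL-4, 3 of the 7 were higher in each of the 4 pairs (17% of all tested genes were) and 3 were lower (23.5%). None of the 7 passed without the block. With the block 2 fell with IL-4 in Cre cells, where 3.32% of all tested genes were called in either direction. Thbd, thrombomodulin, was at 5.09, 2.30, 5.84 and 2.14 FPKM in number 1 and 7.25, 3.65, 8.00 and 5.16 FPKM in number 2, in the same order of groups (log2 -0.83 ± 0.16, SE, adjusted p = 0.0486, limma). Gas6, a vitamin K-dependent ligand of TAM receptors related to protein S, was at 139, 49.7, 154 and 47.6 FPKM in number 1 and 81.8, 43.1, 69.9 and 40.5 FPKM in number 2 (-1.22 ± 0.24, adjusted p = 0.0483, limma). Both genes were lower with IL-4 in the 4 pairs. In Ern1f/f cells the values with the block were -0.86 ± 0.16 for Thbd (SE, adjusted p = 0.0548, limma) and -1.185 ± 0.235 for Gas6 (0.0634), and neither gene was called for a difference between the genotypes. In Ern1f/f cells Thbd passed without Cre IL-4 1 or Cre IL-4 2 (adjusted p = 0.0446 and 0.0489, limma) and Gas6 without Cre control 1 or Cre control 2 (0.0307 and 0.0322). In Cre cells, when each library was left out of the blocked fit in turn, Thbd was called in 0 of 8 fits (adjusted p = 0.0634 to 0.230, limma) and Gas6 in 3 of 8 (0.0405 to 0.304), Gas6 being lost without either Ern1f/f control library, Cre control 1 or either Cre IL-4 library.

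Of 15 further genes of the plasminogen system, 10 were tested and none passed for IL-4 or genotype in either fit. Their median log2 IL-4 difference was -0.14 in Ern1f/f cells and -0.00293 in Cre cells. The most abundant were Anxa2, a plasminogen-binding membrane protein with a mean of 396 FPKM, and Eno1, a glycolytic enzyme that also binds plasminogen at the cell surface, with 206 FPKM. Plasminogen itself (Plg) was listed at 0 in the 8 libraries.

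The receptors of fibronectin and thrombospondin held the smallest adjusted p for IL-4 among the lists (limma with the block). Of 13 receptor genes 10 were tested. With the block 1 rose with IL-4 in Ern1f/f cells and 2 in Cre cells, none fell, and none passed without it. Of all tested genes, the blocked fit called 2.12% in Ern1f/f cells and 3.32% in Cre cells, in either direction. Sdc4, a syndecan that binds fibronectin, was at 26.0, 93.7, 32.8 and 98.6 FPKM in number 1 and 23.7, 65.9, 28.6 and 79.7 FPKM in number 2 (log2 1.62 ± 0.13 in Ern1f/f and 1.503 ± 0.125 in Cre cells, SE, adjusted p = 0.00604 and 0.00560, limma). Itgb3, the β3 integrin subunit, was at 4.37, 18.1, 1.89 and 12.2 FPKM in number 1 and 4.91, 10.8, 3.02 and 13.4 FPKM in number 2. It rose in Cre cells (2.02 ± 0.25, adjusted p = 0.0163, limma), and its value in Ern1f/f cells was 1.41 ± 0.25 (0.0503). Both genes were higher with IL-4 in each of the 4 pairs, as were 17% of all tested genes. The Sdc4 call was lost without Ern1f/f control 1 in Ern1f/f cells (adjusted p = 0.0934, limma) and without either Cre IL-4 library in Cre cells (0.0773 and 0.0818), and the Itgb3 call without Cre control 1 or either Cre IL-4 library (0.0692 to 0.143). The list's median log2 IL-4 difference was 0.05 in Ern1f/f cells and -0.00344 in Cre cells.

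Of the other transglutaminases Tgm4 alone was tested (mean 2.09 FPKM), and of the other thrombospondins Thbs2 alone, and neither passed for IL-4 or genotype. No gene of these lists outside the 10 passed for genotype in either fit, where limma called 0% of all tested genes in control cells, and 0% without and 0.00915% with the block in IL-4-treated cells.

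The genes whose levels followed F13a1 most closely over the 8 libraries, after the mean of each number was removed, were Zcchc24 (Pearson r = 0.976), Ube2w (0.972), Ly6a (0.956), Mbd2 (0.949) and Bnip3 (0.946), among 7404 genes with a mean of at least 5 FPKM. For Fn1 they were Vps26a (r = 0.971), Csf3r (0.966), Vma21 (0.965), Prnp (0.964) and Scpep1 (0.963), among 7403 genes. The 8 points share 4 groups and 2 numbers, and the values are a description. Ly6a spanned 9.35 to 199 FPKM, whereas Ube2w spanned only 4.96 to 6.81 FPKM and Vma21 8.73 to 11.4 FPKM, so likeness in pattern did not mean likeness in size.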

How the data were processed

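Libraries were grouped by their titles. Per the submitters' processing notes, reads were processed with TopHat 1.4.1, Cufflinks 1.3.0 and mm10. Where the gene models came from is not given in the sources used here. The authors deposited 1 table per library with gene-level FPKM, a confidence interval and a status. Read counts were not used here, and the fragments quoted for some genes are those implied by the authors' intervals, which describe counting error only. Rows that share a symbol were summed.

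Values were analysed as log2(FPKM + 1), so that a difference understates the change of low genes, and the filter of 1 FPKM in 2 or more libraries left 10934 genes. The 4 group means were estimated in R 4.3.3 by limma 3.58.1, using eBayes with a trend and two-sided tests. The threshold was 0.05 for the p adjusted by Benjamini-Hochberg over all of these genes. The fit was tested on simulated data. Plots were made in Python 3.11.15 with matplotlib 3.10.9. Genome positions are those of the deposited tables, counted from 1.

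Whether replicate numbers pair the libraries was checked. Across genes, the number 2 minus number 1 differences of any 2 groups correlated with r = 0.688 to 0.827 (6 correlations), so the fit with the number as a block is given beside the fit without it where it matters. The labels do not state the pairing.

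The 10 genes, the lists and the tests were chosen with earlier results of these data known. Named are the 10 genes, genes of the pathway lists that passed in a fit (otherwise the 2 most abundant of a list), markers on which a sum or direction rests, and the 5 genes most like F13a1 and Fn1 by Pearson r. One further gene of the pathway lists is not reported here. Alternatives covered the block, pseudocounts of 0.1 and 5, no filter, upper-quartile scaling, 1 row per symbol, no trend, only the compared groups, and each library left out. Leaving out libraries from the blocked fit, and the alternatives for counts of pairs, were added after the data were examined.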

Additional observations from a re-analysis of the deposited data

How the results depend on the processing

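With the replicate number as a block, the count of genes called for IL-4, among the 7 other than F13a1 and Fn1, moved from 0 to 1 in each genotype. When each library was left out of the blocked fit, it was 0 to 2 in each, and without the block it stayed at 0 in each such fit. The block changed no other call of the 7 genes. The 1 gene lower with IL-4 in each pair (Thbs1) became 2 without Cre control 2 or Cre IL-4 2, and the 5 higher genes stayed at 5. No other setting changed the counts called for IL-4, and the 5 genes called between the numbers became 4 without the filter and 5 to 6 with a library left out. The log2 IL-4 difference of Serpinb2 in Cre cells turned from -0.17 to 0.052 with a pseudocount of 0.1.

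Leaving out 1 library turned the sign of several differences that had not passed, and the cause was not tested. Without the block, in Ern1f/f cells, the log2 IL-4 difference then ran from -0.93 to 2.86 for Fn1, -2.21 to 0.21 for Thbs1, -0.47 to 1.24 for Plau and -2.10 to 1.21 for Serpinb2. In Cre cells it ran from -0.78 to 3.08 for Fn1, -0.00050 to 1.41 for Tgm2, -2.94 to 0.80 for Thbs1, -0.14 to 1.26 for Plau and -2.38 to 2.05 for Serpinb2. With the block, it ran from -0.16 to 2.09 for Fn1 and -0.91 to 0.012 for Serpinb2 in Ern1f/f cells, and from -0.35 to 2.65 and -0.72 to 0.39 in Cre cells. The interaction ran from -0.92 to 1.42 for F7 and -0.060 to 0.48 for F10 without the block, and from -0.44 to 0.94 and -0.28 to 0.70 with it. Blocked values below 0 inside these ranges were -0.40 (F7) and -0.011 (F10) without Ern1f/f IL-4 2, and -0.0084 (F7) without Ern1f/f control 1. The difference of Plaur between the numbers ran from -0.41 to 0.0039. For F10, F7 and F13a1 no setting turned the sign of an IL-4 difference.

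With 2 libraries in each group, and 1 left where a library is taken out and then assumed to vary like the other groups, a missed call says little. Levels under 1 FPKM (F3, and Serpinb2 in number 2) rest on few fragments.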
